A study of Mus musculus with 2 samples.

Results

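The genes described here are 10 that macrophages use to find and take up dead cells, lipoproteins and complement-coated particles. They are Gas6, Timd4, Stab1, Mertk, Axl, Cd36, Msr1, Marco, Vsig4 and Cd93, chosen by gene symbol among the 28692 genes listed for the series, and each symbol matched 1 gene. Their transcripts were counted cell by cell, as 3′ ends captured in 10x Chromium droplets, in cells of the peritoneal cavity. The Xbp1dIEC library came from mice that lack Xbp1, which drives the response to misfolded proteins, in gut epithelial cells, and the WT library from wild-type mice. Both libraries came from germ-free C57BL/6 mice of 10 weeks, and each pooled 4 male mice, with 8700 cells encapsulated. The deletion lies in gut epithelium and not in the cells sequenced, so their Xbp1 level does not check it; large macrophages held 119 CPM (UMIs of a gene per 1e6 UMIs of the gate) of Xbp1 in Xbp1dIEC and 109 CPM in WT. With 1 library per genotype there is no replicate check and no test between genotypes, and every 95% interval below covers counting error only.

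Dying cells expose phosphatidylserine on their surface, and macrophages read it either directly, through receptors such as Timd4 and Stab1, or through bridging proteins such as Gas6, which ties it to the receptor kinases Mertk and Axl. Scavenger receptors of class A (Msr1, Marco) and class B (Cd36) bind modified lipoproteins, microbes and cell debris, and Vsig4 binds complement fragments. The peritoneal cavity holds Gata6-dependent large macrophages, known for taking up dead cells without inflammation, beside smaller macrophage populations and dendritic cells.

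Cells were sorted in silico by marker counts, none of them from the 10 genes. Large macrophages carried Gata6, Icam2, Alox15, Prg4, Selp and Garnl3, Folr2/Retnla macrophages carried Folr2, Retnla and Cbr2, and Cd209a cells carried Cd209a. Large macrophages were 2777 Xbp1dIEC cells (45.4% of cells kept, 95% interval 44.2 to 46.7) and 2794 WT cells (46.1%, 44.9 to 47.4). Folr2/Retnla macrophages were 301 Xbp1dIEC cells (4.92%) and 323 WT cells (5.33%), and Cd209a cells were 81 Xbp1dIEC cells (1.33%) and 91 WT cells (1.50%). Median depth in large macrophages was 7742 UMIs (unique molecular identifiers, each 1 counted molecule) in Xbp1dIEC and 9581.5 in WT, with median mitochondrial shares of 3.51% in Xbp1dIEC and 3.03% in WT. The part of depth and RNA quality in the results below was not tested. The names hold only in part: of the Folr2/Retnla cells, 70.1% in Xbp1dIEC and 74.9% in WT also carried 10 or more large macrophage marker UMIs, and Retnla, at 11752 and 8956 CPM in that gate, reached 781 and 701 CPM in large macrophages and 133 and 112 CPM in B cells. Of the libraries' 6246 and 6204 barcodes, 58 were the same in both.

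B cells, which should lack most of these receptors, give the level of each gene outside macrophages, where free RNA and the cells' own transcripts cannot be told apart. B cells had 5 or more UMIs of Cd79a and Cd79b, and T cells 3 or more of Cd3d, Cd3e and Cd3g. Both needed under 2 UMIs of the other set, under 2 of Csf1r and Adgre1, and no macrophage gate. The limit on Csf1r and Adgre1 takes out barcodes rich in macrophage RNA, so these levels can understate free RNA. Of the 10 genes Cd36 was the highest in B cells, at 10.0 CPM in Xbp1dIEC and 12.4 CPM in WT. Vsig4 followed in WT, at 3.80 CPM in Xbp1dIEC and 7.04 CPM in WT. In the same cells Timd4 had 2.31 CPM in Xbp1dIEC and 4.50 CPM in WT, and Marco 3.05 CPM in Xbp1dIEC and 4.16 CPM in WT. In T cells none of the 10 genes exceeded 4.42 CPM in Xbp1dIEC or 8.92 CPM in WT, where Marco was the highest; Marco had 0 UMIs in Xbp1dIEC T cells, which allows up to 3.31 CPM.

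Marco and Vsig4 had the highest co-detection ratio of the pairs compared in large macrophages, by the mean of both libraries, so the 250 bases before their start sites are shown. Both are read from the minus strand and come from the RefSeq promoter table (build GRCm38.p6). Marco (class A scavenger receptor, gene at chr1:120474538-120505024) is shown over chr1:120505025-120505274, and Vsig4 (complement receptor, gene at chrX:96247203-96293438) over chrX:96293439-96293688. Capitals mark GAGGAA, the core bound by PU.1, a transcription factor that macrophages need.
Marco: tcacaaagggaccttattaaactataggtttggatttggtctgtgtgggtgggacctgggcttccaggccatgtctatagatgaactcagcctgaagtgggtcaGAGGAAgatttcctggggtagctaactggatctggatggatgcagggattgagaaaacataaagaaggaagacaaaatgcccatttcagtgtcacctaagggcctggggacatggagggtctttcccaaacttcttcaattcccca
Vsig4: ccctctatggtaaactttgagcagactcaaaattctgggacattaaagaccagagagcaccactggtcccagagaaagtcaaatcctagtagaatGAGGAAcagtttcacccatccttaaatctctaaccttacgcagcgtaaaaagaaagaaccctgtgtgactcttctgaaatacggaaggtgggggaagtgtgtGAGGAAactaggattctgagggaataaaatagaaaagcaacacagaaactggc
The Marco stretch holds the core once, beginning 146 bases before the start site, and the Vsig4 stretch holds it at 155 and 53 bases before. Of 32851 RefSeq promoter windows of 300 bases (250 before and 50 after the start), 28.3% hold GAGGAA or TTCCTC, and so do 4 of the 8 member windows in the table, those of Axl, Marco, Stab1 and Vsig4. TGCTGA or TCAGCA, the core half-site of MAF factors, was in 19.5% of all windows and in the windows of Cd36, Stab1, Timd4 and Vsig4. AGATAA or TTATCT, the GATA core, was in 11.2% of all windows and in none of the 8, and TATAAA or TTTATA in 13.6% and in none. These are matches of letters and not sites, and 3′ counts do not show which start site was used. Cd93 and Msr1 have no entry in the table.

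In large macrophages the 10 genes spanned a wide range of levels. Vsig4 was the highest, with 352 CPM in Xbp1dIEC and 459 CPM in WT, followed by Msr1 and Timd4. Cd36, Cd93 and Marco came next in both libraries, in an order that differed between them: Cd36 led these 3 in Xbp1dIEC and Marco in WT. Mertk, Stab1 and Axl stood lower, and Gas6 was barely detected. CPM of different genes are not scaled by length; 3′ counting takes 1 end of each transcript, and the order is of UMIs only. Of the 10 genes, 0 were higher and 2 were lower in Xbp1dIEC by a log2 ratio of 0.5 or more (Marco and Gas6), against 0.606% higher and 3.79% lower of 12215 genes with 10 or more UMIs. Their median log2 ratio was -0.05, the same as the -0.05 of all those genes.

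**Figure D1:**
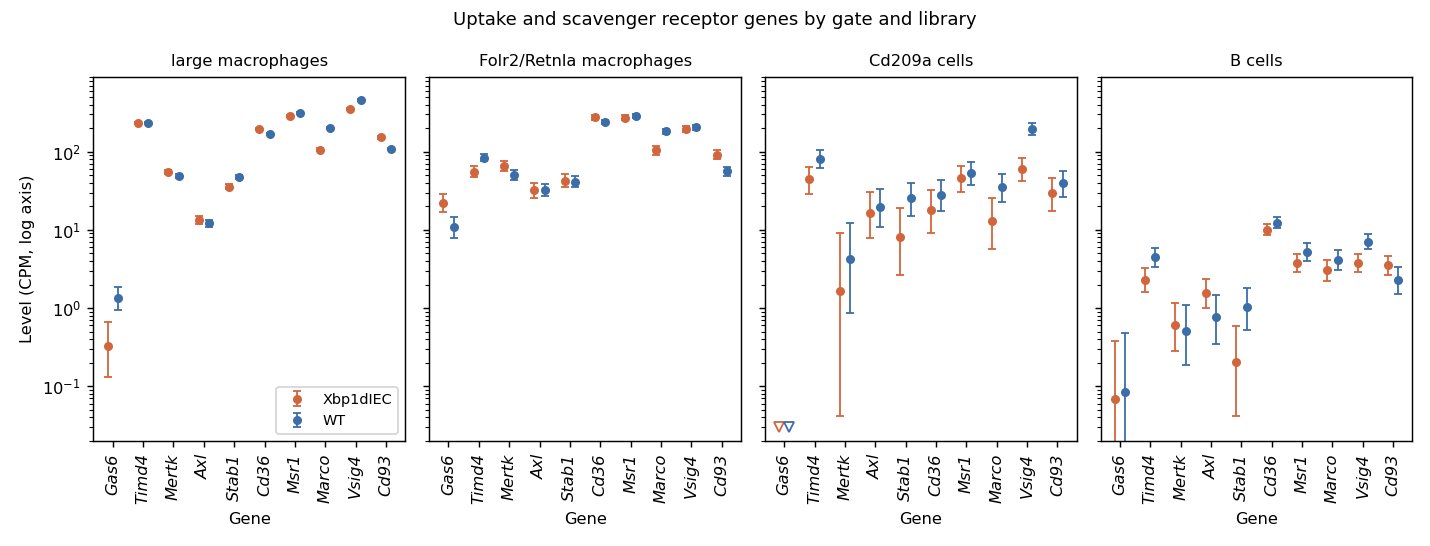
Level of each gene (CPM, log axis) in each gate, with Xbp1dIEC in orange and WT in blue. Points are 1 library each, bars are 95% Poisson counting intervals, and open triangles mark 0 UMIs; the B cell panel shows the level outside macrophages, highest for Cd36 at 10.0 and 12.4 CPM.

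Gas6, the bridging ligand (chr8:13465374-13494490), had its highest level in the Folr2/Retnla gate. Large macrophages held 7 Gas6 UMIs in 6 of 2777 Xbp1dIEC cells and 37 UMIs in 31 of 2794 WT cells, that is 0.326 CPM and 1.35 CPM. The log2 ratio of Xbp1dIEC over WT, with 1 CPM added to both, was -0.83; the ratio without it had an interval of -3.46 to -0.87. Folr2/Retnla macrophages held 59 UMIs in 31 Xbp1dIEC cells and 41 UMIs in 24 WT cells, 22.2 CPM (16.9 to 28.6) and 10.8 CPM (7.78 to 14.7). There the log2 ratio of 0.97 (0.44 to 1.65) pointed the other way, and single cells held up to 8 of these UMIs in Xbp1dIEC and up to 10 in WT. Cd209a cells held 0 Gas6 UMIs in both libraries, which allows up to 4.92 CPM in Xbp1dIEC and 4.24 CPM in WT.

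Within the Folr2/Retnla gate, Gas6 was higher in cells with more Folr2 UMIs, by a split chosen after seeing the data. Cells with 2 or more Folr2 UMIs (145 in Xbp1dIEC, 170 in WT) held 37.5 CPM of Gas6 in Xbp1dIEC and 18.6 CPM in WT, while the remaining cells held 7.41 CPM and 2.23 CPM. Detection of Folr2 was alike in Xbp1dIEC, in 26 of 31 Gas6-positive and 230 of 270 Gas6-negative cells (83.9% and 85.2%). In WT it was found in all 24 Gas6-positive and 240 of 299 Gas6-negative cells (100% and 80.3%). Axl, a receptor for the Gas6 protein, was seen in 2 of 31 Gas6-positive and 52 of 270 Gas6-negative Xbp1dIEC cells (6.45% and 19.3%). In WT it was seen in 3 of 24 Gas6-positive and 68 of 299 Gas6-negative cells (12.5% and 22.7%), so in both libraries the ligand and this receptor shared few cells. Back in the unthinned Folr2/Retnla gate, Mertk, the other Gas6 receptor measured, was in 10 of 31 Gas6-positive and 116 of 270 Gas6-negative Xbp1dIEC cells (32.3% and 43.0%). In WT it was in 8 of 24 and 135 of 299 (33.3% and 45.2%). Timd4 went the other way, in 32.3% of Gas6-positive and 18.9% of Gas6-negative Xbp1dIEC cells and in 45.8% and 25.8% in WT. The haemoglobin scavenger Cd163 did too, with 25.8% and 15.9% in Xbp1dIEC and 37.5% and 10.4% in WT. Median depth was 8867 UMIs in Gas6-positive and 8710.5 in Gas6-negative Xbp1dIEC cells, and 8560 and 11784 UMIs in WT.

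Timd4 (chr11:46810800-46844332) binds phosphatidylserine directly and marks resident macrophages. Large macrophages held 234 CPM in Xbp1dIEC and 232 CPM in WT, a log2 ratio of 0.01 (-0.04 to 0.07), so no difference was detectable at this depth. A Timd4 UMI was found in 57.0% of Xbp1dIEC and 60.3% of WT large macrophages, against 1.80% and 3.04% of B cells with median depths of 6575 and 5754 UMIs. With every cell thinned at random to 2000 UMIs, the large macrophage shares were 31.7% in Xbp1dIEC and 32.9% in WT, against 0.601% and 1.19% of B cells. Folr2/Retnla macrophages held 55.7 CPM in Xbp1dIEC and 84.1 CPM in WT, lower in Xbp1dIEC by a log2 ratio of -0.59 (-0.89 to -0.31). Against large macrophages of the same library that is a log2 ratio of -2.05 in Xbp1dIEC and -1.45 in WT.

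Stab1 (chr14:31139013-31168641), a large multidomain receptor that binds phosphatidylserine and oxidised lipoprotein, was lower in Xbp1dIEC large macrophages at 35.8 CPM, against 47.3 CPM in WT. Its log2 ratio of -0.39 (-0.53 to -0.27) excluded 0 in counting terms but stayed under the 0.5 limit. In Folr2/Retnla macrophages the levels were 42.5 CPM in Xbp1dIEC and 41.2 CPM in WT, with a log2 ratio of 0.04 (-0.32 to 0.40).

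The Gas6 receptor kinases behaved differently from each other across gates. Mertk (chr2:128698956-128802894), the kinase through which macrophages engulf dying cells at rest, had 55.4 CPM in Xbp1dIEC and 48.9 CPM in WT large macrophages, a log2 ratio of 0.18 (0.07 to 0.29). In Folr2/Retnla macrophages it had 65.9 CPM in Xbp1dIEC and 50.2 CPM in WT (0.38, 0.09 to 0.70), close to the level in large macrophages. Axl (chr7:25757273-25788705), usually described as the kinase of inflamed or activated cells, had 13.4 CPM in Xbp1dIEC and 12.2 CPM in WT large macrophages (0.13, -0.09 to 0.37). It reached 32.0 CPM in Xbp1dIEC and 32.5 CPM in WT Folr2/Retnla macrophages, a log2 ratio over large macrophages of 1.20 (0.89 to 1.61) in Xbp1dIEC and 1.35 (1.11 to 1.72) in WT, and did not differ detectably between genotypes there (-0.02, -0.44 to 0.39).

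Cd36 (chr5:17781690-17888801), the class B scavenger and fatty acid receptor, was higher in Xbp1dIEC in both macrophage gates. Large macrophages held 194 CPM in Xbp1dIEC and 170 CPM in WT (log2 ratio 0.19, 0.13 to 0.25), and Folr2/Retnla macrophages 276 CPM and 241 CPM (0.20, 0.06 to 0.34). After thinning, 32.4% of Xbp1dIEC and 27.8% of WT large macrophages had a Cd36 UMI, against 2.29% and 2.45% of B cells. The unthinned shares, 71.2% in Xbp1dIEC and 72.8% in WT, ran in the other order, at median depths of 7742 and 9581.5 UMIs. Cells with 2 or more Folr2 UMIs held more Cd36 than the rest of their gate, at 321 and 232 CPM in Xbp1dIEC and 271 and 207 CPM in WT.

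Msr1 (chr8:39581685-39642673), the class A scavenger receptor, was among the most even of the 10. It had 289 CPM in Xbp1dIEC and 312 CPM in WT large macrophages (-0.11, -0.16 to -0.06), and 274 and 287 CPM in Folr2/Retnla macrophages (-0.07, -0.21 to 0.07). The tenth of large macrophages with the most Msr1 UMIs held 28.5% of them in Xbp1dIEC and 27.6% in WT.

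Marco, the other class A receptor, stood in contrast. Large macrophages held 106 CPM (102 to 111) in Xbp1dIEC and 200 CPM (195 to 205) in WT, a log2 ratio of -0.91 (-0.99 to -0.85). After thinning, 13.5% of Xbp1dIEC and 22.3% of WT large macrophages had a Marco UMI, a log2 ratio of shares of -0.73. Positive cells held 1.70 UMIs in Xbp1dIEC and 1.94 UMIs in WT on average, a log2 ratio of -0.19. The B cell shares were 0.382% in Xbp1dIEC and 0.776% in WT. Unthinned shares were 25.1% in Xbp1dIEC and 41.5% in WT, and cells with 5 or more Marco UMIs were 5.19% in Xbp1dIEC and 13.3% in WT. Expression was uneven in both libraries, since the tenth of cells with the most Marco held 76.5% of its UMIs in Xbp1dIEC and 64.0% in WT. Folr2/Retnla macrophages held 104 CPM (92.0 to 117) in Xbp1dIEC and 183 CPM (170 to 198) in WT, close to large macrophages of the same library, with a log2 ratio between genotypes of -0.81 (-1.03 to -0.62). In that gate 66 of 301 Xbp1dIEC and 101 of 323 WT cells had a Marco UMI.

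**Figure D2:**
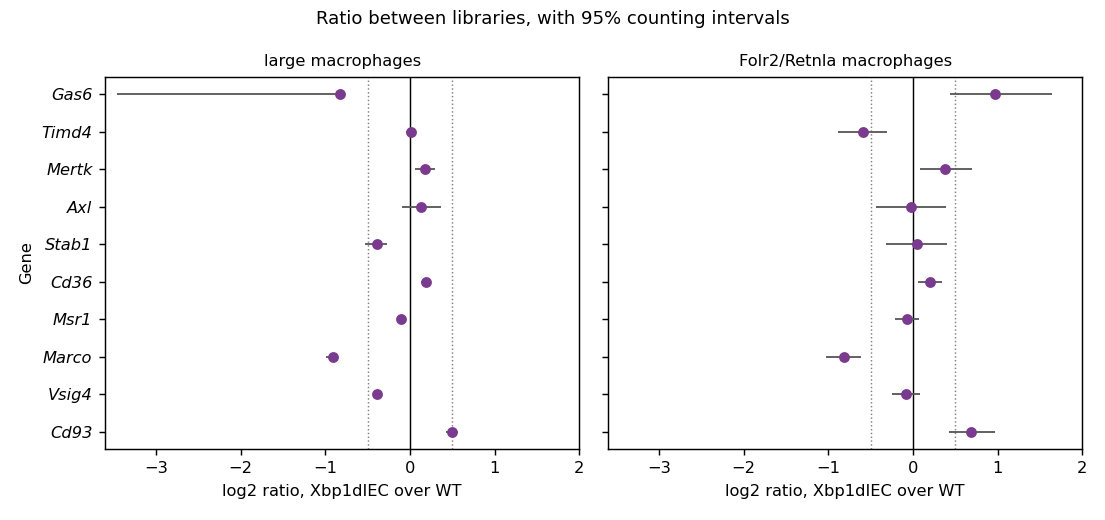
Log2 ratio of Xbp1dIEC over WT for each gene (x axis; 1 CPM added to both) in large macrophages and Folr2/Retnla macrophages, with 95% counting intervals of the ratio without the added CPM as lines and the 0.5 limit dotted. Marco lies near -0.9 and -0.8 and Cd93 near 0.5 and 0.7 in the 2 gates, while Gas6 lies on opposite sides of 0; its large macrophage interval rests on 7 and 37 UMIs and does not reach its point.

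Vsig4, the complement receptor of resident macrophages, was the most switch-like of the 10. Large macrophages held 352 CPM in Xbp1dIEC and 459 CPM in WT, a log2 ratio of -0.38 (-0.43 to -0.34). A Vsig4 UMI was found in 27.1% of Xbp1dIEC and 32.3% of WT cells unthinned and in 23.1% and 26.3% after thinning, so the larger number of UMIs added few positive cells, unlike for Timd4. Positive thinned cells held 3.07 UMIs in Xbp1dIEC and 3.44 in WT, the highest of the 10, and single cells reached 65 and 66 UMIs before thinning. The B cell shares after thinning were 0.928% in Xbp1dIEC and 1.07% in WT. Folr2/Retnla macrophages held 194 CPM in Xbp1dIEC and 205 CPM in WT (-0.08, -0.24 to 0.08), a value that ran between -0.70 and 0.60 under other settings. All of it lay in 38 of 301 Xbp1dIEC and 64 of 323 WT cells. Over large macrophages of the same library the log2 ratio was -0.85 in Xbp1dIEC and -1.16 in WT.

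Cd93 (chr2:148436640-148443563), a lectin-like surface receptor linked to clearance of dying cells, was higher in Xbp1dIEC in both gates. Large macrophages held 152 CPM in Xbp1dIEC and 108 CPM in WT, a log2 ratio of 0.49 (0.42 to 0.57) just under the 0.5 limit. Thinned shares were 24.9% in Xbp1dIEC and 19.3% in WT, with 1.21 and 1.18 UMIs per positive cell, against B cell shares of 0.874% in Xbp1dIEC and 0.418% in WT. Folr2/Retnla macrophages held 91.5 CPM in Xbp1dIEC and 56.6 CPM in WT (0.68, 0.42 to 0.97). Unlike Gas6 and Cd36, Cd93 was lower where Folr2 was high, with 69.6 CPM in cells with 2 or more Folr2 UMIs and 113 CPM in the rest in Xbp1dIEC, and 36.7 and 78.6 CPM in WT. All the large macrophage markers were also lower there. Among them Garnl3 had 33.6 and 66.7 CPM in Xbp1dIEC and 77.5 and 120 CPM in WT. Alox15 had 1028 and 1293 CPM in Xbp1dIEC and 680 and 1448 CPM in WT. The part of this difference in the Cd93 levels was not tested.

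**Figure D3:**
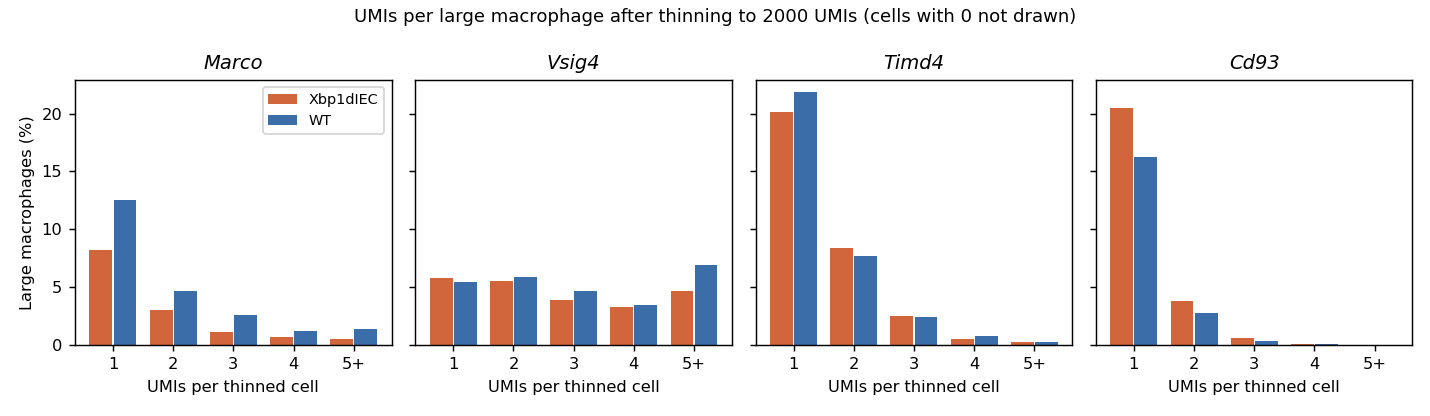
Share of large macrophages (%, y axis) with 1, 2, 3, 4 or 5 and more UMIs of Marco, Vsig4, Timd4 and Cd93 after each cell was thinned to 2000 UMIs, Xbp1dIEC in orange and WT in blue; cells with 0 are not drawn. Marco bars are lower in Xbp1dIEC at every count, Vsig4 spreads to 5 and more UMIs in 4.68% and 6.94% of cells, and Timd4 and Cd93 fall away quickly.

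In the Folr2/Retnla gate, 2 of the 10 genes were higher (Gas6 and Cd93) and 2 lower (Marco and Timd4) in Xbp1dIEC by a log2 ratio of 0.5 or more. Of 10091 genes with 10 or more UMIs there, 5.86% were higher and 11.2% lower by as much. The median log2 ratio of the 10 was 0.01, and that of all those genes was -0.06. Set against large macrophages, Gas6 and Axl were higher by a log2 ratio of 1 or more in both libraries, where 2.21% of genes in Xbp1dIEC and 1.45% in WT were. Timd4 was lower by as much in both libraries and Vsig4 in WT, where 2.43% of genes in Xbp1dIEC and 1.62% in WT were. Mertk, Stab1, Msr1 and Marco lay between -0.19 and 0.25 in this comparison. The class II gene H2-Ab1 had 496 CPM in Xbp1dIEC and 926 CPM in WT in this gate, and 81.8 and 117 CPM in large macrophages; its part in these ratios was not tested.

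Co-detection in single large macrophages was measured as the share of thinned cells holding both genes, divided by the product of the single shares, so that 1 means no association. Over the 28 pairs of the 8 genes found in at least 5% of cells, the median was 1.07 in Xbp1dIEC and 1.05 in WT, with 20 and 23 pairs above 1. Most pairs were therefore close to independent. Marco with Vsig4 was the highest by the mean of both libraries, at 1.69 (1.43 to 1.98) in Xbp1dIEC and 1.33 (1.17 to 1.51) in WT. In WT alone the highest pair was Timd4 with Vsig4, at 1.40 (1.26 to 1.54), which had 1.27 (1.13 to 1.43) in Xbp1dIEC. Vsig4 was found in 39.0% of Marco-positive and 20.6% of Marco-negative Xbp1dIEC cells, and in 35.0% and 23.8% in WT. Stab1 with Marco had 1.62 (1.18 to 2.18) in Xbp1dIEC and 1.26 (0.98 to 1.60) in WT, and Timd4 with Marco 1.46 (1.26 to 1.69) in Xbp1dIEC and 1.31 (1.17 to 1.47) in WT. The least shared pair was Mertk with Vsig4, at 0.74 (0.56 to 0.97) in Xbp1dIEC and 0.87 (0.66 to 1.11) in WT. Timd4 with Cd93 had 0.91 in Xbp1dIEC and 0.99 in WT, and Mertk with Msr1 0.92 in Xbp1dIEC and 1.01 in WT. Vsig4, Marco, Timd4 and Stab1, a group chosen after these ratios were seen, met in the same cells more often than the single shares give, with ratios between 1.21 and 1.69 in all 6 pairings and both libraries. In the far fewer Folr2/Retnla cells, Marco was found in 41.9% of Timd4-positive and 8.52% of Timd4-negative Xbp1dIEC cells (13 and 23 cells), and in 37.5% and 14.1% in WT (15 and 40 cells). Marco with Vsig4 there had 1.79 (0.66 to 3.85) from 6 Xbp1dIEC cells and 2.79 (1.70 to 4.28) from 19 WT cells.

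**Figure D4:**
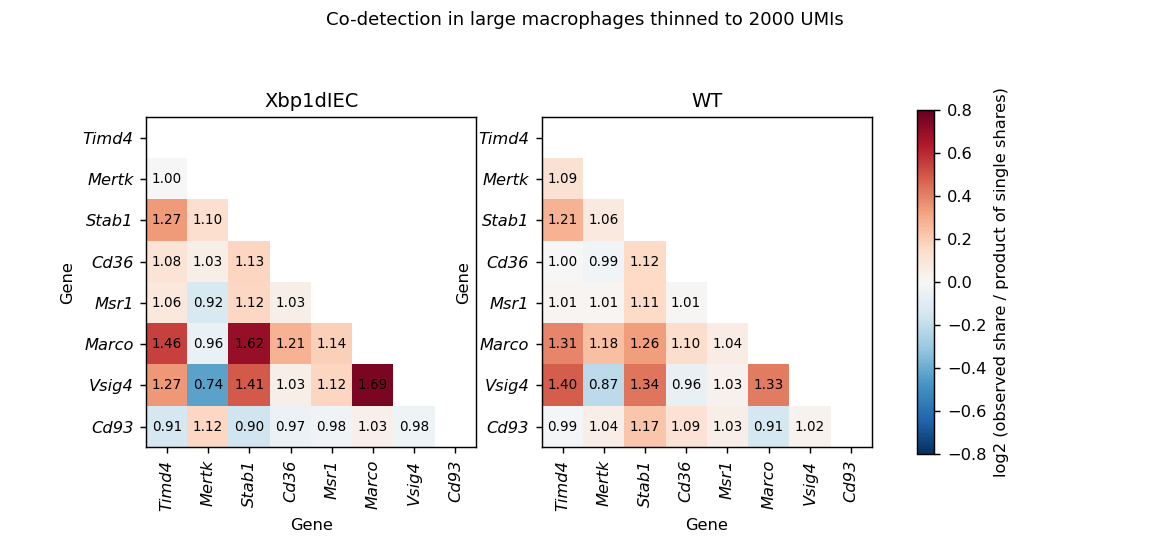
Co-detection ratio for each pair of 8 genes in thinned large macrophages of the Xbp1dIEC (left) and WT (right) libraries; colour is the log2 of the ratio and the number printed is the ratio itself. Marco with Vsig4 (1.69 and 1.33) is the reddest by the mean of both, and Mertk with Vsig4 (0.74 and 0.87) the bluest.

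The number of different genes found per thinned large macrophage was alike in both libraries, with a mean of 1.88 in Xbp1dIEC and 1.92 in WT and a median of 2 in each. In 12.5% of cells of each library 0 of the 10 were found, and 4 or more were found in 10.5% of Xbp1dIEC and 11.1% of WT cells. In Folr2/Retnla macrophages the means were 1.58 in Xbp1dIEC and 1.57 in WT.

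Among all genes found in at least 10% of large macrophages, those whose per-cell values ran most like Marco were Saa3, an acute phase gene, with a Pearson r of 0.23 (mean of both libraries), Wfdc17 with 0.22 and Rps29 with 0.16. For Vsig4 they were Pf4 with 0.20, Wfdc17 with 0.15 and mt-Atp6 with 0.14, and for Timd4 the B cell chemokine Cxcl13 with 0.16, Ftl1 with 0.14 and mt-Co3 with 0.13. These are descriptions over 2777 Xbp1dIEC and 2794 WT cells that share a library and differ in depth. The closest genes to Cd36, Msr1 and Cd93 were Ccl6 with 0.06, Tmsb4x with 0.08 and Malat1 with 0.08, which is no finding in counts this sparse.

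The libraries differed in the make-up of large macrophages, and the genes were therefore read in subsets of thinned cells. Cells with 2 or more UMIs of cell cycle genes after thinning to 1000 UMIs, called cell cycle-positive here, were 10.8% in Xbp1dIEC and 18.1% in WT. Whether each of them was dividing is not shown by these counts. Cells with a Cxcl13 UMI were 30.5% in Xbp1dIEC and 25.5% in WT. Marco was lower in Xbp1dIEC in each subset. Cell cycle-positive cells held 94.7 CPM in Xbp1dIEC and 170 CPM in WT (-0.83, -1.30 to -0.40), and the rest 117 CPM and 226 CPM (-0.95, -1.10 to -0.81). In cells with Cxcl13 Marco had 157 CPM in Xbp1dIEC and 379 CPM in WT (-1.27, -1.49 to -1.06), and in cells without Cxcl13 96.1 CPM and 161 CPM (-0.74, -0.93 to -0.56). Vsig4 was uneven between subsets. It had 367 CPM in Xbp1dIEC and 337 CPM in WT in cell cycle-positive cells (0.12, -0.13 to 0.37), and 353 CPM and 478 CPM in the rest (-0.44, -0.53 to -0.35). In cells with Cxcl13 it had 447 CPM in Xbp1dIEC and 698 CPM in WT (-0.64, -0.78 to -0.50), and 314 CPM and 368 CPM in cells without it (-0.23, -0.34 to -0.12). In cells with a Timd4 UMI Vsig4 had 445 CPM in Xbp1dIEC and 670 CPM in WT (-0.59, -0.72 to -0.46), and in cells without one 312 CPM and 346 CPM (-0.15, -0.26 to -0.03). Whether these ratios differ between subsets beyond the variation among mice was not tested. Cd93 was higher in Xbp1dIEC in all of these subsets. Cell cycle-positive cells held 158 CPM of it in Xbp1dIEC and 99.6 CPM in WT (0.66, 0.24 to 1.08), and the rest 150 CPM and 117 CPM (0.36, 0.20 to 0.52). Marco also stayed lower in Xbp1dIEC among Vsig4-positive cells, at 185 CPM against 289 CPM in WT (-0.64, -0.88 to -0.41). In Marco-positive cells Vsig4 had 553 CPM in Xbp1dIEC and 564 CPM in WT (-0.03, -0.20 to 0.15), and in Marco-negative cells 323 CPM and 421 CPM (-0.38, -0.48 to -0.28).

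Cd209a cells held little of any of the 10 genes once their make-up was considered. Taken whole, 8 genes had 10 or more UMIs over both libraries, of which 0 were higher and 5 lower in Xbp1dIEC by a log2 ratio of 0.5 or more (Timd4, Stab1, Cd36, Marco and Vsig4), against 12.8% higher and 21.1% lower of 7292 genes. The median of the 8 was -0.74, and that of all those genes -0.09. Against large macrophages, 8 of 9 genes measured in Xbp1dIEC and 8 of 10 in WT were lower by a log2 ratio of 1 or more, where 17.2% and 14.1% of all genes were. The whole gate, however, held a few cells that resembled large macrophages. The 9 Xbp1dIEC and 18 WT cells with 10 or more large macrophage marker UMIs had 2446 and 2924 CPM of Prg4 and only 146 and 59.8 CPM of H2-Ab1. They carried 81.4% (118 of 145) and 90.6% (309 of 341) of all member UMIs in the gate.

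The other 72 Xbp1dIEC and 73 WT cells had 13123 and 15538 CPM of H2-Ab1, and the 10 genes together summed to 51.1 and 57.5 CPM. Axl had the most UMIs in WT and as many as Timd4 in Xbp1dIEC, with 10 UMIs in Xbp1dIEC (18.9 CPM, 9.08 to 34.8) and 14 UMIs in WT (25.2 CPM, 13.8 to 42.2). B cells held 1.56 CPM of Axl in Xbp1dIEC and 0.764 CPM in WT. Timd4 had 10 UMIs in Xbp1dIEC (18.9 CPM) and 3 UMIs in WT (5.39 CPM). With only these cells counted, Timd4 and Axl kept 10 or more UMIs over both libraries. The Timd4 log2 ratio was 1.64, with an interval of -0.14 to 4.31 that includes 0. Mertk and Gas6 had 0 UMIs in both libraries. Vsig4 had 0 UMIs in Xbp1dIEC and 1 in WT, and Marco had 0 in Xbp1dIEC and 3 in WT. Axl was the only one of the 10 whose interval lay above its B cell interval in both libraries. It had 0 UMIs in the few large macrophage-like cells, with intervals reaching 44.9 CPM in Xbp1dIEC and 24.5 CPM in WT. These overlap the Axl intervals of the other cells, so a lower Axl level in the large macrophage-like cells is not shown. Cells with none of the 10 after thinning were 85.2% of the whole gate in Xbp1dIEC and 74.7% in WT.

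**Figure D5:**
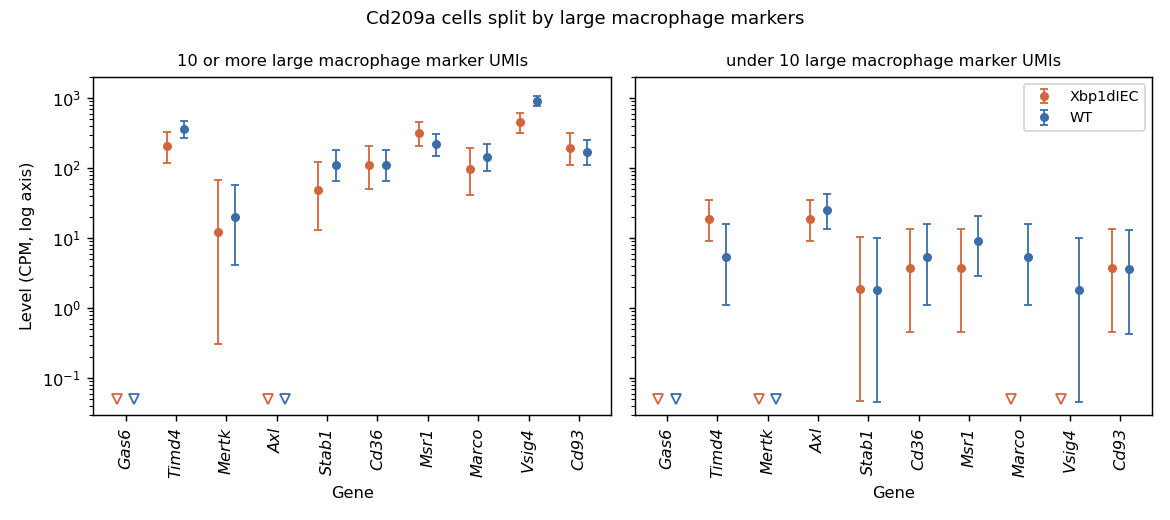
Level of each gene (CPM, log axis) in Cd209a cells with 10 or more large macrophage marker UMIs (left, 9 Xbp1dIEC and 18 WT cells) and with fewer (right, 72 and 73 cells), Xbp1dIEC in orange and WT in blue; bars are 95% Poisson intervals and open triangles mark 0 UMIs. On the left every Xbp1dIEC interval includes the level in large macrophages of that library. In WT the intervals of Vsig4, Timd4, Stab1 and Cd93 lie above it and that of Msr1 below it. Vsig4 there is at 910 CPM (764 to 1076), against 459 CPM in WT large macrophages. On the right Axl is at 18.9 and 25.2 CPM.

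A further 54 uptake genes were examined, covering bridging proteins, other receptors, the engulfment machinery and genes acting after uptake. In large macrophages 1 of 46 measured was higher in Xbp1dIEC by a log2 ratio of 0.5 or more and 0 were lower, against 0.606% and 3.79% of all genes, with a median of -0.003. That gene was Olr1, the oxidised LDL receptor, at 3.91 CPM in Xbp1dIEC and 2.23 CPM in WT (0.60, 0.32 to 1.31). Of the 46, 25 lay below 0 and 21 above it. The genes that follow for this gate were named outside the naming limits. Cd68 had 239 CPM in Xbp1dIEC and 336 CPM in WT (-0.49, -0.54 to -0.44), and Cd5l 879 and 1132 CPM (-0.36). Anxa1 had 138 and 178 CPM (-0.36), while Thbs1 had 733 and 575 CPM (0.35). The complement bridging gene C1qa had 3627 CPM in Xbp1dIEC and 4153 CPM in WT (-0.20). The calreticulin-binding receptor Lrp1 had 211 CPM in both libraries. Tyro3, the remaining Gas6 receptor kinase, had 1 UMI in Xbp1dIEC and 2 UMIs in WT. In Folr2/Retnla macrophages 4 of 43 were higher and 0 lower, against 5.86% and 11.2% of all genes, with a median of 0.01. Cd163 had 50.4 CPM in Xbp1dIEC and 29.1 CPM in WT (0.77, 0.42 to 1.17), and Abcg1, a cholesterol exporter, 16.6 and 10.6 CPM (0.60, -0.004 to 1.30). Rubcn had 29 UMIs in Xbp1dIEC and 27 in WT (0.55, -0.19 to 1.42), and Ppard 28 and 25 (0.60, -0.16 to 1.51). Of these 4 genes only Cd163 had an interval that excluded 0. In Cd209a cells 4 of 35 were higher and 10 lower, against 12.8% and 21.1% of all genes. Among those with 30 or more UMIs the largest ratios were those of the mannose receptor Mrc1 at 115 CPM in Xbp1dIEC and 29.7 CPM in WT (1.91, 1.23 to 2.73) and of C1qa at 415 and 986 CPM (-1.25, -1.46 to -1.04). Cd5l, a macrophage-secreted scavenger protein, had 121 CPM in Xbp1dIEC and 260 CPM in WT (-1.10), and Cxcl16 had 29.5 and 58.0 CPM (-0.95). Cd163 had 49.2 CPM in Xbp1dIEC and 25.5 CPM in WT (0.92), and C1qc 518 and 967 CPM (-0.90). These are values of the whole gate, where the 9 Xbp1dIEC and 18 WT large macrophage-like cells carried 227 of 253 and 605 of 697 C1qa UMIs. Without those cells, Mrc1 had 133 CPM in Xbp1dIEC and 37.7 CPM in WT, and C1qa 49.2 and 165 CPM. Cd163 had 54.9 CPM in Xbp1dIEC and 30.5 CPM in WT. Cd5l, Cxcl16 and C1qc were not read without those cells, and the part of those cells in their ratios was not tested.

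Other cell types left small traces in the large macrophage gate. B cell markers summed to 47.0 CPM in Xbp1dIEC and 61.2 CPM in WT over 4 genes, all above 0, and T cell markers to 2.37 and 4.24 CPM over 3 genes. Platelet, eosinophil and mesothelial or stromal markers each summed to under 1 CPM, with Epx, Prg2, Msln and Col1a1 at 0 in both libraries. The neutrophil list summed to 84.3 CPM in Xbp1dIEC and 69.6 CPM in WT, of which S100a8 made up 14.0 and 16.6 CPM and Csf3r the rest, with S100a9 and Retnlg at 0 in both. The part of these traces in the ratios above was not tested.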

How the data were processed

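The deposited values of both libraries are raw UMI counts for each gene in each barcode. Cell Ranger 2.2.0, Seurat 2.3.0 and mm10 are named in the submitters' processing notes, without their roles. The gene annotation is not given in the sources used here. The files held 6246 barcodes and 49703442 UMIs for Xbp1dIEC, and 6204 barcodes and 56229330 UMIs for WT.

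A barcode needed at least 500 UMIs, at least 200 genes and a mitochondrial share under 10%, and 20 Xbp1dIEC and 6 WT barcodes failed this. Doublets called by scrublet within scanpy 1.11.5 (expected rate 5%) were removed, 113 in Xbp1dIEC and 140 in WT, leaving 6113 and 6058 cells. Large macrophages had 10 or more UMIs over 6 markers with 3 or more of them detected. Folr2/Retnla macrophages had 6 or more UMIs of Folr2, Retnla and Cbr2 with 2 or more detected and under 3 of Cd209a. Cd209a cells had 3 or more Cd209a UMIs. A cell passing both of these last gates was set apart (6 in Xbp1dIEC, 3 in WT), and these 3 gates needed under 5 lymphoid marker UMIs. The members, lists, gates and most alternatives were chosen with earlier results of these data known.

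Levels are summed UMIs of a gate in 1 library, scaled to CPM, with Poisson intervals (exact). Log2 ratios had 1 CPM added to both sides, and their exact conditional binomial intervals are of the ratio without it. They were computed for every gene with 10 or more UMIs, and a gene was counted as higher or lower past a log2 ratio of 0.5 between genotypes or 1 between gates. Shares had exact Clopper-Pearson intervals at 95%, after each cell was thinned at random to 2000 UMIs; no gated cell was shallower. A count of 0 was given the limit of 3 counts. No p-value was computed, since cells are not replicates. All 10 members were named, with the 3 highest and 3 lowest co-detection pairs, the 3 genes most like each member in cells with a value in 10% or more, and at most 6 further uptake genes per gate with 30 or more UMIs and a log2 ratio of 0.5. The calculations were checked on simulated counts in Python 3.11.15 with scipy 1.17.1 and numpy 2.4.6. Alternatives changed the gates, filters, doublet step, added CPM, centring, limit and thinning.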

Additional observations from a re-analysis of the deposited data

Results flagged for a closer look

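Gas6 was the only one of the 10 genes whose ratio between libraries pointed in opposite directions in the macrophage gates with both counting intervals excluding 0. Its log2 ratio of Xbp1dIEC over WT was 0.97 in Folr2/Retnla macrophages, from 59 and 41 UMIs, and -0.83 in large macrophages, from 7 and 37 UMIs. With 1 library per genotype, whether these ratios differ between the gates was not tested. The log2 ratio in Folr2/Retnla macrophages ranged from 0.63 to 1.15 over 11 alternatives, and that in large macrophages from -2.05 to -0.14.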

How the results depend on the processing

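Of 290 member ratios recomputed under alternatives, 257 stayed within their counting interval and 30 moved outside it. Another 3, of a gene whose interval excluded 0 as reported, changed sign. These were Timd4 in Cd209a cells, at -0.85 as reported, 1.37 with gate thresholds doubled, 1.76 with gate conflicts settled by the larger marker sum and 1.64 without cells carrying 10 or more large macrophage marker UMIs. In large macrophages Marco ranged from -1.06 to -0.86, Vsig4 from -0.48 to -0.33 and Cd93 from 0.46 to 0.55; in Folr2/Retnla macrophages Marco ranged from -1.11 to -0.44. Of the shares of cells 39 of 60 moved, as they follow the depth kept, and of co-detection ratios 3 of 36. Members higher in large macrophages were 1 with thresholds halved or ratios centred on the median of all genes (shifts of -0.05, -0.06 and -0.09 in the 3 gates), against 0. Members lower were 1 with 10 CPM added and 0 at a log2 ratio of 1 (0.442% of all genes were lower by as much), against 2. In Folr2/Retnla macrophages, members higher were 1 with thresholds halved and 0 at a log2 ratio of 1 (0.575% of all genes), against 2. Members lower in that gate were 1 with gates on UMIs per 10000 or by the larger marker sum and 0 at a log2 ratio of 1 (1.47% of all genes), against 2. In Cd209a cells, members higher were 1 with thresholds halved, doubled, by the larger marker sum or without the large macrophage-like cells, against 0. Members lower there were 0 under the last 3 of these, 2 with gates per 10000 UMIs and 3 at a log2 ratio of 1 (6.38% of all genes were lower by as much), against 5. Except where a share is printed, these counts stand without the share of all genes under the same setting. They describe the members alone. The log2 ratio of the large macrophage share of cells was -0.02, but -0.11 with thresholds doubled and 0.12 with lymphoid marker UMIs under 2. The cause of these changes was not tested. The gates with 2 or more Folr2 UMIs and without large macrophage-like Cd209a cells were chosen after seeing the data. No paired analysis was possible because each genotype has 1 library. Depth limits the Cd209a gate most, where 1 UMI is over 1 CPM, and Gas6 in every gate.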
